A study of Homo sapiens with 18 samples.

Results

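MIR3648, MIR3687, LINC00273, LOC284801, MIR663A and MIR663B are 6 noncoding loci, at least 3 of which lie in or beside ribosomal RNA sequence in RefSeq. They were chosen by symbol, among the 23686 rows of the deposited tables, because they took a large share of the expression signal in TMD8. All 6 rows were found in both cell lines. The levels in TMD8 are therefore a description with no test, while the dose comparisons in OCI-Ly1 were tested.

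RNA was sequenced in OCI-Ly1 and TMD8, established human lines of diffuse large B-cell lymphoma, an aggressive tumour of B cells. OCI-Ly1 is of the germinal centre B-cell type and TMD8 of the activated B-cell type. Each line was treated with JIB-04 at 150 nM or at 500 nM, or with the vehicle, 0.01% DMSO. There were 3 libraries per group and 18 in all. JIB-04 is a small-molecule inhibitor of Jumonji histone demethylases, the enzymes that remove methyl groups from histone lysines. The series asks about heterochromatin as a weak point of lymphoma, and the groups compare RNA with and without the drug in each line. The labels call the libraries technical triplicates and name no separate cultures, so the p-values may measure only the spread between libraries. The medium was IMDM for OCI-Ly1 but RPMI for TMD8, and the 2 lines' tables were normalised separately. OCI-Ly1 libraries held 17579732 to 32651115 estimated counts, and TMD8 libraries held 9550092 to 20509500. The B-cell gene CD79A was present in every group, with a mean TPM (a length-scaled unit that sums to 1000000 per library) of 221 in OCI-Ly1 under DMSO and 240 in TMD8. Of the erythroid genes, HBB had group means of at most 0.0349 TPM, while HBA1 in TMD8 was at 0.428, 0.928 and 1.82 mean TPM with DMSO, 150 nM and 500 nM (edgeR log2 change 2.49 at 500 nM, adjusted p = 8.3e-06). The part of other cell types in the results was not tested.

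Ribosomal RNA is transcribed by RNA polymerase I as 1 long precursor from repeated gene units on the short arms of the acrocentric chromosomes. External and internal spacers of the precursor are cut away as the 18S, 5.8S and 28S RNAs mature. Many units are held silent in heterochromatin, and fragments and pseudogenes of the repeat are scattered over other chromosomes, often near centromeres. MicroRNAs are short RNAs cut from hairpins, and their seed, near the 5′ end, pairs with target messages.

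In RefSeq (GRCh38.p14), MIR3648 is listed as MIR3648-1 and lies inside RNA45SN2, a gene of the ribosomal precursor, before the 18S gene RNA18SN2 on chromosome 21. MIR663B lies on chromosome 2 inside ANKRD30BL and a pseudogene, LOC107985804. Its neighbours are a copy of the 18S gene and RNA5-8SP5, a 5.8S pseudogene. LINC00273, a long intergenic noncoding RNA on chromosome 16, is next to a pseudogene, LOC110262331, and to RNA5-8SP2. LOC284801 is the RefSeq gene MIR663AHG on chromosome 20, and MIR663A lies inside it. The gene spans overlap, and how reads were split between the row of MIR663A and that of its host was not tested. The submitters' processing notes name hg19 for the tables, so the positions given here describe only the printed sequences. MIR3687 is the remaining locus.

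The mature sequences found in RefSeq are printed to show how rich in G and C these miRNAs are. Capitals mark the seed, bases 2 to 8. The positions in GRCh38.p14 are chr2:132256970-132256991 (minus strand) for miR-663b, chr20:26208243-26208264 (minus strand) for miR-663a and chr21:8987026-8987046 (plus strand) for miR-3648, which RefSeq lists there under the copy MIR3648-2.
hsa-miR-663a: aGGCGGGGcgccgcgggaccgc
hsa-miR-663b: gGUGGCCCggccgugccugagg
hsa-miR-3648: aGCCGCGGggaucgccgaggg
No 2 of these share a seed. The seed of miR-663a is also that of 3 other mature miRNAs, hsa-miR-10396b-5p, hsa-miR-1908-5p and hsa-miR-6787-5p. G and C made up 90.9% of miR-663a, 81.8% of miR-663b and 81.0% of miR-3648, against a median of 52.2% over 2370 human mature miRNAs. Only 0.46% of those miRNAs reached the share of miR-663a.

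LINC00273 and MIR663B hold nearly the same sequence on opposite strands, and whether this affected the values of either row was not tested. The hairpin of MIR663B (RefSeq, GRCh38.p14, chr2:132256966-132257080, minus strand) is printed above the matching stretch of LINC00273, read on the strand opposite to its GENCODE 29 transcript. Capitals mark the bases that differ.
MIR663B hairpin: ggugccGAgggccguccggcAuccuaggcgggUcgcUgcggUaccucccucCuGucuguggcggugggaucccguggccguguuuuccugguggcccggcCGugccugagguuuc
LINC00273 opposite strand: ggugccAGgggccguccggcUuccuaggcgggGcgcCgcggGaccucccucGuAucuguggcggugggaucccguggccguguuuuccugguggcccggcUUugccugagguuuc
The 2 agree at 105 of 115 bases (91.3%) with no gap. The same hairpin matched MIR663A at 81 of 90 bases (90.0%) and a transcript of MIR663AHG at 81 of 88 bases (92.0%), both on the same strand. No strand is stated for the counting. How the counting split reads among LINC00273, LOC284801, MIR663A and MIR663B is thus uncertain, and the 4 rows cannot be taken as independent measurements.

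The start of LINC00273 shows the ribosomal sequence beside it. The window from 250 bases before to 50 bases after its start (RefSeq, GRCh38.p14, chr16:34159924-34160223, minus strand) carries in capitals the 194 bases that aligned to the GENCODE transcript at RNA18SP2, an 18S pseudogene, at 181 positions (93.3%).
LINC00273 promoter window: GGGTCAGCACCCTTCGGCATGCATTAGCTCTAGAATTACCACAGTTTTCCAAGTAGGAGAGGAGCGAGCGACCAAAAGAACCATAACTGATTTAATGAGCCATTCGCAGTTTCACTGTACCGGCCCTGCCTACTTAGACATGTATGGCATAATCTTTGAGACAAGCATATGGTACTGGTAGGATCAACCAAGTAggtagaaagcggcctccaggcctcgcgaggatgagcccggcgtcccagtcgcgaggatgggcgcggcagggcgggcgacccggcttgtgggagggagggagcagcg
This window was 56.0% G and C, and 56.8% of 35116 promoters reached that share. The window of MIR663AHG was 75.3% G and C, a share that 9.0% of promoters reached.

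At 500 nM JIB-04, all 6 loci rose in OCI-Ly1, by 3.52-fold (MIR3648) to 8.13-fold (LINC00273). In each case the 3 treated libraries lay above the 3 DMSO libraries. Levels are given as CPM, counts per 1000000 scaled by TMM, and the fold changes and adjusted p-values are from edgeR's quasi-likelihood test. A row was called at an adjusted p under 0.05 over all 15638 rows tested. All 6 members passed the low-count filter and 6 of 6 were called higher, against 27.7% of all rows tested (53.6% were called in either direction). The median log2 change was 2.39 over the members and -0.0033 over all tested rows. By non-overlap alone, 31.3% of all rows were higher. LINC00273 ranked 135 of 15638 by fold change, and the lowest-ranked member, MIR3648, ranked 377.

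Of the miRNA loci outside the MIR663 pair, MIR3648 stood at 38.5, 29.8 and 37.0 CPM in the OCI-Ly1 libraries with DMSO, at 42.6, 29.7 and 43.0 with 150 nM, and at 133, 130 and 109 with 500 nM. The 500 nM libraries were well apart from the other 6, which overlapped. The change at 500 nM against DMSO was 1.81 on the log2 scale (SE 0.12, edgeR adjusted p = 6.6e-10). MIR3687 was at 17.7, 18.5 and 21.6 CPM with DMSO, at 21.6, 14.3 and 32.9 with 150 nM, and at 99.9, 91.0 and 64.4 with 500 nM. The 150 nM libraries of MIR3687 straddled the DMSO range, and those at 500 nM were all higher. Its log2 change at 500 nM was 2.14 (SE 0.20, edgeR adjusted p = 8.2e-08).

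For the long noncoding RNAs, LINC00273 was at 21.6, 27.3 and 19.1 CPM with DMSO, at 31.0, 22.6 and 32.0 with 150 nM, and at 216, 189 and 143 with 500 nM. No other member rose by as many fold, at a log2 change of 3.02 (SE 0.15, edgeR adjusted p = 1.2e-11). LOC284801, the host of MIR663A, had the most counts of the 6 in OCI-Ly1. It stood at 293, 315 and 325 CPM with DMSO, at 401, 290 and 442 with 150 nM, and at 2155, 2002 and 1628 with 500 nM. The log2 change at 500 nM was 2.63 (SE 0.12, edgeR adjusted p = 3.6e-12). In both RNAs the first and second 500 nM libraries were higher than the third, yet the lowest was several times any DMSO library.

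The hairpin rows of the MIR663 pair rose as well. MIR663A was at 25.6, 22.8 and 31.4 CPM with DMSO, at 27.0, 19.2 and 55.7 with 150 nM, and at 196, 178 and 137 with 500 nM. Its log2 change at 500 nM, 2.67 (SE 0.24, edgeR adjusted p = 6.2e-08), was close to the 2.63 of its host. MIR663B was at 25.1, 26.1 and 27.7 CPM with DMSO, at 27.5, 18.1 and 34.8 with 150 nM, and at 100.2, 100.3 and 93.8 with 500 nM. Its log2 change was 1.90 (SE 0.14, edgeR adjusted p = 2.7e-09). MIR663B had the tightest groups at DMSO and 500 nM and a wide one at 150 nM. Whether the reads of these rows came from hairpins, mature miRNAs or longer transcripts was not tested.

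**Figure D1:**
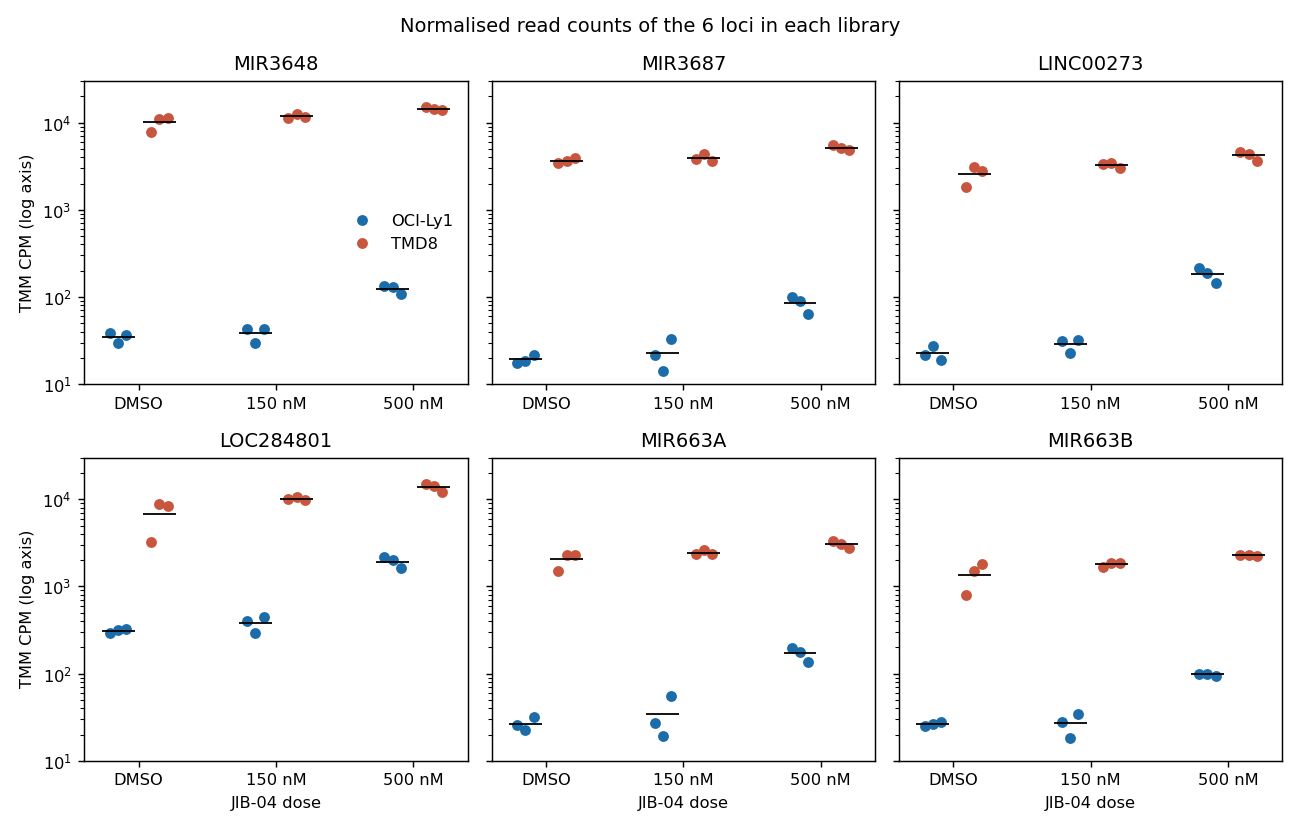
TMM-scaled CPM (log axis) of each locus in the 18 libraries, by JIB-04 dose, with OCI-Ly1 in blue and TMD8 in red. Points are libraries and bars are means of 3. In every panel the OCI-Ly1 libraries at 500 nM lie above the other OCI-Ly1 libraries, and TMD8 lies higher than OCI-Ly1 at every dose.

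No member was called at 150 nM against DMSO in OCI-Ly1 by edgeR, where 0.889% of all rows were called in either direction and 0.748% higher. At an unadjusted edgeR p under 0.05 there were 2, LINC00273 and LOC284801. DESeq2 called 0 by adjusted p and 0 by unadjusted p. The log2 changes were 0.34 for LINC00273 (SE 0.16, edgeR adjusted p = 0.46), 0.32 for MIR663A (0.25, 0.72), 0.28 for LOC284801 (0.11, 0.39), 0.23 for MIR3687 (0.21, 0.77), 0.12 for MIR3648 (0.12, 0.79) and 0.01 for MIR663B (0.14, 0.99). For all 6 loci the second 150 nM library was the lowest of its group and the third the highest, and 0 loci separated from DMSO, against 6.73% of all rows that did so upward. Without that second library LOC284801 was called (log2 change 0.44, edgeR adjusted p = 0.03), and likewise with no low-count filter (0.29, edgeR adjusted p = 0.0091). Without the third library the values of MIR663A, MIR663B and MIR3687 were -0.21, -0.20 and -0.11.

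Between the 2 doses in OCI-Ly1, all 6 loci rose again, with 6 of 6 called higher by edgeR against 25.1% of all rows. The log2 changes at 500 nM against 150 nM were 2.68 for LINC00273, 2.35 for both LOC284801 and MIR663A, 1.91 for MIR3687, 1.88 for MIR663B and 1.70 for MIR3648, with edgeR adjusted p-values from 2.4e-11 to 4.1e-07. No library of one dose overlapped the other for any of the 6, as was the case upward for 29.8% of all rows. This comparison shares its 500 nM libraries with the comparison against DMSO.

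In TMD8, whose tables were normalised separately, the same loci held far higher levels, and all 6 were higher at 500 nM than with DMSO by smaller factors than in OCI-Ly1, from 1.4-fold (MIR3687) to 2.02-fold (LOC284801). The TMD8 levels chose the members, so neither these changes nor their difference from OCI-Ly1 was tested. MIR3648 was at 7739, 11144 and 11351 CPM with DMSO, at 11288, 12559 and 11600 with 150 nM, and at 15000, 14457 and 13908 with 500 nM. MIR3687 was at 3459, 3604 and 3937 CPM with DMSO, at 3803, 4404 and 3608 with 150 nM, and at 5475, 5118 and 4797 with 500 nM. For both loci every 500 nM library lay above the 6 others. The log2 changes at 500 nM against DMSO were 0.52 (SE 0.10) for MIR3648 and 0.48 (SE 0.08) for MIR3687.

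LINC00273 in TMD8 was at 1803, 3076 and 2782 CPM with DMSO, at 3357, 3460 and 3011 with 150 nM, and at 4629, 4392 and 3639 with 500 nM. LOC284801 was at 3231, 8723 and 8417 CPM with DMSO, at 9965, 10558 and 9877 with 150 nM, and at 14835, 14252 and 12015 with 500 nM. The first DMSO library stood far below the other two for LOC284801, and the 3 dose groups did not overlap. The log2 changes at 500 nM were 0.72 (SE 0.13) for LINC00273 and 1.01 (SE 0.22) for LOC284801.

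MIR663A in TMD8 was at 1507, 2313 and 2324 CPM with DMSO, at 2379, 2615 and 2355 with 150 nM, and at 3305, 3086 and 2750 with 500 nM. MIR663B was at 799, 1523 and 1787 CPM with DMSO, at 1685, 1880 and 1873 with 150 nM, and at 2298, 2322 and 2226 with 500 nM. The 500 nM group of MIR663B was again the tightest of the 6 loci relative to its mean. The log2 changes at 500 nM were 0.57 (SE 0.12) for MIR663A and 0.74 (SE 0.17) for MIR663B.

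Over the 3 TMD8 groups, 6 of 6 loci were higher at 500 nM than with DMSO without overlap, where 33.1% of the 15363 tested rows were. At 500 nM against 150 nM it was again 6 of 6, with 22.6% of all rows, and log2 changes from 0.29 to 0.44. By TPM only LOC284801 of the 6 separated between these doses, and the median log2 change was 0.11 on the log2(TPM + 1) scale, against 0.35 by counts. At 150 nM against DMSO it was 2 of 6 (LOC284801 and MIR663A), with 23.1% of all rows, and log2 changes from 0.10 to 0.58. By TPM only LOC284801 separated at 150 nM. By CPM the first DMSO library was the lowest of its group for all 6 loci. Without it the log2 changes at 150 nM against DMSO ran from 0.06 for MIR3687 to 0.24 for LOC284801, with a median of 0.10 in place of 0.31. Without it the log2 changes at 500 nM against DMSO were 0.36 for MIR3648, 0.44 for MIR3687, 0.52 for LINC00273, 0.67 for LOC284801, 0.39 for MIR663A and 0.46 for MIR663B. On the log2(TPM + 1) scale the same changes, with all libraries, were 0.11, 0.37, 0.38, 0.77, 0.16 and 0.35 in that order. By TPM only 3 of the 6 (MIR3687, LINC00273 and LOC284801) were higher at 500 nM without overlap. By edgeR fold change at 500 nM against DMSO, LOC284801 ranked 1225 of 15363, and the lowest-ranked member, MIR3687, ranked 3265.

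**Figure D2:**
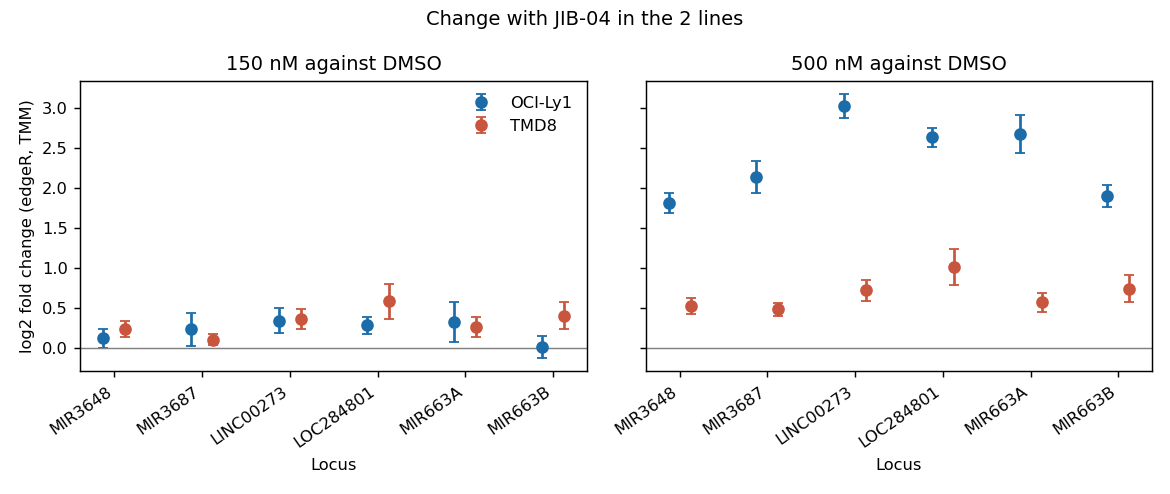
Log2 fold changes of the 6 loci at 150 nM (left) and 500 nM (right) JIB-04 against DMSO, with OCI-Ly1 in blue and TMD8 in red. Points are edgeR estimates from 3 libraries a group and bars are ± 1 SE. At 500 nM the OCI-Ly1 points run from 1.81 to 3.02 and the TMD8 points from 0.48 to 1.01.

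The 6 loci took 46.9% ± 4.86 (SD, n = 3) of all TPM in TMD8 with DMSO, 49.5% ± 2.68 with 150 nM and 55.4% ± 2.68 with 500 nM. By library the TMD8 shares were 41.3%, 49.2% and 50.1% with DMSO, 48.6%, 52.5% and 47.4% with 150 nM, and 58.0%, 55.5% and 52.7% with 500 nM. All 3 libraries at 500 nM lay above the DMSO libraries, and the 150 nM libraries overlapped those with DMSO. In OCI-Ly1 the shares were 1.0%, 1.17% and 1.65% with DMSO, 1.34%, 0.871% and 2.05% with 150 nM, and 4.93%, 5.21% and 5.18% with 500 nM. The OCI-Ly1 means were 1.28% ± 0.338, 1.42% ± 0.594 and 5.11% ± 0.149. The rise at 500 nM was 3.83 percentage points against DMSO, at an exact two-sided permutation p = 0.1, the smallest that 3 against 3 libraries allow. At 150 nM the difference was 0.142 percentage points (exact permutation p = 0.7).

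By estimated counts the loci took a much smaller part of each library. The share of counts in TMD8 was 1.74%, 2.95% and 2.97% with DMSO, 3.27%, 3.60% and 3.33% with 150 nM, and 4.67%, 4.45% and 4.03% with 500 nM. On this scale the 3 dose groups of TMD8 did not overlap. In OCI-Ly1 it was 0.0416%, 0.0426% and 0.0451% with DMSO, 0.0545%, 0.0388% and 0.0624% with 150 nM, and 0.298%, 0.280% and 0.228% with 500 nM. The OCI-Ly1 libraries at 500 nM were again above the rest (exact permutation p = 0.1 against DMSO, and 0.4 for 150 nM against DMSO).

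**Figure D3:**
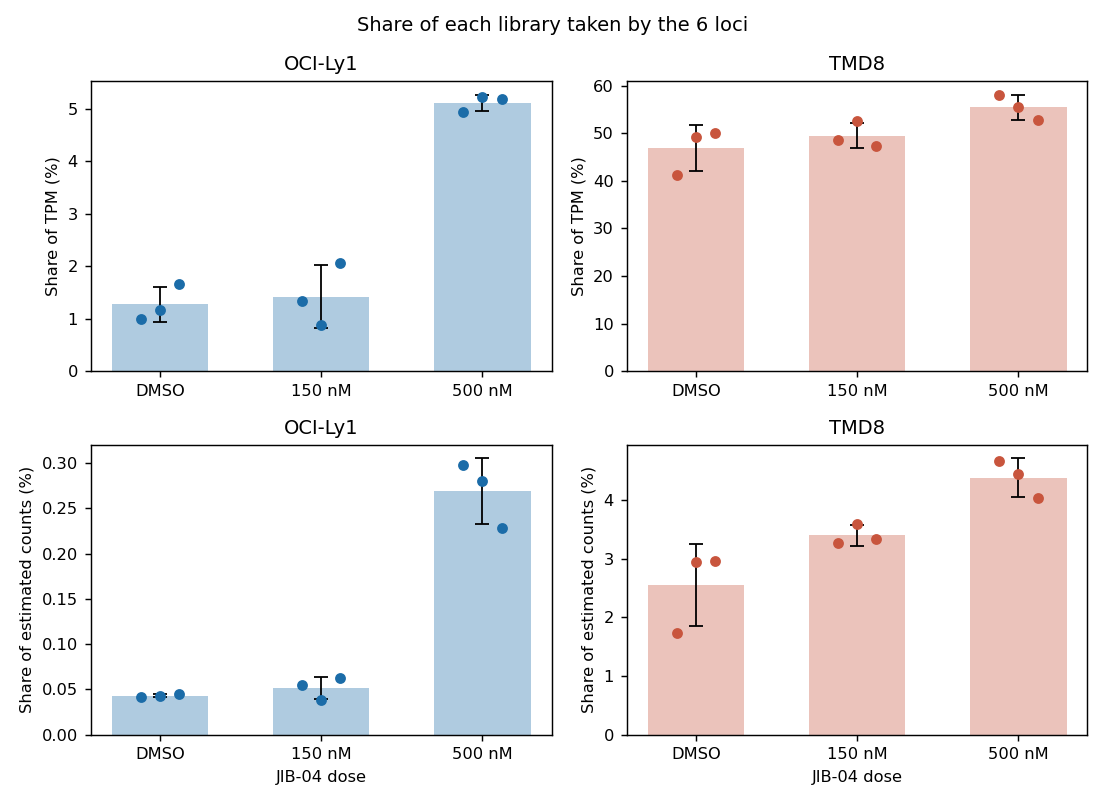
Share of the 6 loci in each library's TPM (top) and estimated counts (bottom), in percent, by JIB-04 dose, for OCI-Ly1 (left) and TMD8 (right). Each panel has its own axis from 0. Points are libraries, bars are means and error bars are the SD of 3. TPM shares reach 58.0% in TMD8 and 5.21% in OCI-Ly1, while count shares reach 4.67% and 0.298%.

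TPM divides counts by the length that the quantification uses for each transcript, and 4 of the 6 loci are very short. In GENCODE 29 the transcript of MIR3687-1 has 61 bases, MIR663A 93, MIR663B 115 and MIR3648-1 180, while LINC00273 has 1452 and MIR663AHG has 37 transcripts of 473 to 1213 bases. Reads were made with 101 cycles, more than the length of MIR3687-1 or MIR663A. In TMD8 a count at MIR663A carried 198 times the TPM of a count in the median row (median of 9 libraries). The factor was 188 for MIR3687, 146 for MIR663B and 53.2 for MIR3648, but 2.57 for LOC284801 and 2.10 for LINC00273. In OCI-Ly1 it was 426 for MIR663A, 246 for MIR663B, 141 for MIR3687 and 59.2 for MIR3648. The factors did not follow annotated length alone, as MIR3687 has the shortest transcript and not the largest factor in either line.

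These weights were not constant between OCI-Ly1 libraries. Counts per TPM relative to the median row ran from 0.00139 to 0.00382 for MIR663A and from 0.00342 to 0.0113 for MIR3687, but only from 0.394 to 0.402 for LOC284801. MIR663A thus stood at 4310, 6715 and 10877 TPM in the OCI-Ly1 DMSO libraries, where its CPM varied only from 22.8 to 31.4. In TMD8 the range was narrower, from 0.00475 to 0.00552 for MIR663A. On the TPM scales the OCI-Ly1 change of MIR663A at 150 nM was -0.02, against 0.32 by counts.

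**Figure D4:**
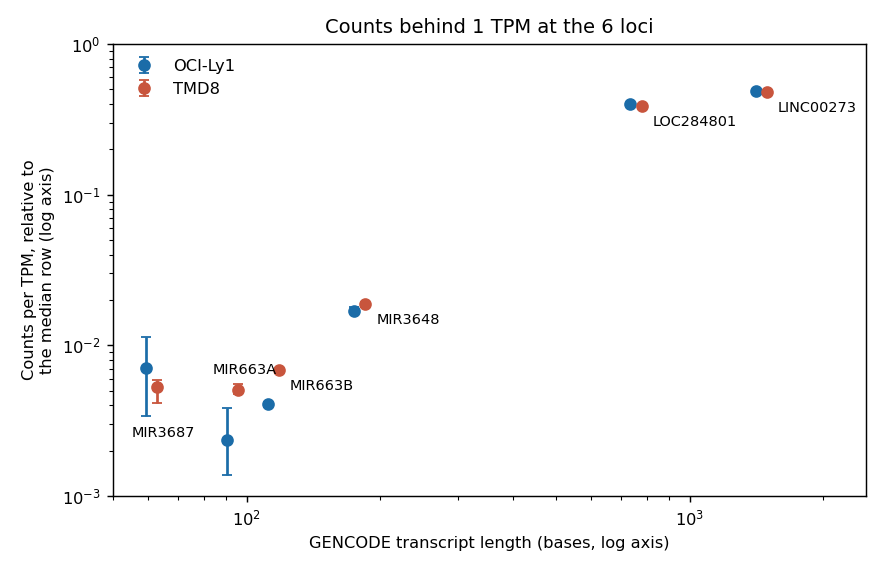
Estimated counts per TPM of each locus, relative to the median row of the same library (log axis), against its GENCODE 29 transcript length in bases (log axis; LOC284801 is placed at the geometric mean of its shortest and longest transcript). Points are medians of 9 libraries, bars run from the lowest to the highest library, OCI-Ly1 is blue and TMD8 red, and the points of the lines are set slightly apart sideways. The 4 short loci lie below 0.02 and the 2 long ones above 0.38.

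Per length, the loci held high places among all rows. By mean TPM over the 9 TMD8 libraries MIR3687 ranked 1 of 23686, MIR3648 ranked 2, MIR663A 3, MIR663B 5, LOC284801 9 and LINC00273 26. By mean count the order was MIR3648 (rank 2), LOC284801 (5), MIR3687 (9), LINC00273 (11), MIR663A (15) and MIR663B (28). With DMSO in TMD8, MIR3687 held 16.7% ± 0.592 of TPM (SD, n = 3), MIR3648 14% ± 2.14, MIR663A 10.3% ± 1.48 and MIR663B 5.24% ± 1.67. LOC284801 held 0.435% ± 0.176 and LINC00273 0.135% ± 0.0268. MIR3648 and MIR663A, neighbours in this order, overlapped between libraries (115394 to 153745 and 86899 to 115871 TPM), and no other neighbours did.

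In OCI-Ly1 the order by TPM differed. MIR663A ranked 3 and MIR663B 4 of 23686 by mean TPM, before MIR3687 (30), MIR3648 (71), LOC284801 (141) and LINC00273 (1591). With DMSO the levels were 7300 ± 3323 TPM (SD, n = 3) for MIR663A, 3058 ± 207 for MIR663B, 1041 ± 319 for MIR3687, 979 ± 146 for MIR3648, 366 ± 25.3 for LOC284801 and 21.7 ± 3.56 for LINC00273. MIR3687 and MIR3648 overlapped there, and the other neighbours in this order did not. The makeup of the members' counts differed as well: LOC284801 held 70.5% to 74.5% of them in the OCI-Ly1 groups and 24.5% to 31.9% in TMD8. MIR3648 held 4.82% to 7.98% in OCI-Ly1 and 33.8% to 38.5% in TMD8.

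Because TPM sums to a fixed total, a large share of a few rows lowers all others. Over the 12440 other TMD8 rows with a mean of at least 1 TPM, the median log2(TPM + 1) change at 500 nM against DMSO was -0.347 as deposited, and -0.147 after the 6 loci were removed and the rest rescaled. In OCI-Ly1, over 13398 such rows, the medians were 0.12 and 0.172. Over all other rows with any TPM the TMD8 median was -0.0757 as deposited and 0.0 after removal. The edgeR fits on counts with TMM scaling gave a median of 0.0414 in TMD8. TMM itself sets the bulk of rows near no change, so this median cannot show whether the other rows fell.

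Other short noncoding rows did not follow a single pattern. Of the 1301 other miRNA rows, 78 could be tested in OCI-Ly1, and at 500 nM against DMSO 8 rose and 15 fell (edgeR), with a median log2 change of -0.24, where 27.7% of all rows rose and 25.9% fell. In TMD8, 25 of 64 rose and 7 fell, with a median of 0.39, where 29.9% of all rows rose and 30.7% fell. Their share of TPM in OCI-Ly1 was 1.93% ± 0.169 with DMSO and 1.36% ± 0.241 with 500 nM (SD, n = 3), while in TMD8 it was 3.88% ± 0.285 and 5.93% ± 0.55. Most of the TMD8 share was 1 row, MIR4461, at 32499 mean TPM with DMSO and 52783 with 500 nM, levels above those of LOC284801 and LINC00273. MIR4651 rose in both lines, from 0.0132 to 0.566 mean CPM in OCI-Ly1 (edgeR adjusted p = 0.00021) and from 0.0734 to 1.65 in TMD8 (edgeR adjusted p = 1.5e-06). MIR1324 was at 0 in every OCI-Ly1 DMSO library and at 0.498 CPM ± 0.0855 with 500 nM (edgeR adjusted p = 0.00023). MIR3689B fell in OCI-Ly1 from 0.738 to 0.104 mean CPM (edgeR adjusted p = 0.00061). The CPM levels of MIR4651, MIR1324 and MIR3689B are far below those of the 6 loci.

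The ribosomal RNA rows RNA5SP244 and RNA5SP411, pseudogenes of the 5S RNA, had no counts in any library. A search by symbol for the ribosomal precursor and its mature RNAs found no other row. Per the labels' protocols ribosomal RNA was depleted before sequencing, and how far depletion reached the spacer sequence was not tested. Among the non-member rows with the largest TPM in TMD8 were RMRP, MIR4461, RPPH1 and RPL13AP5. RMRP and RPPH1, the RNA parts of the RNases MRP and P, together took 7.82% to 8.31% of TPM in the TMD8 DMSO libraries and 11% to 12% at 500 nM. In OCI-Ly1 they took 12.6% to 13.2% and 16.0% to 17.8%, more than the 6 loci did there. By counts in OCI-Ly1 at 500 nM against DMSO, where 27.7% of all rows rose, RPPH1 rose by 0.36 on the log2 scale (edgeR adjusted p = 8.2e-05). RMRP was not called there (0.07, edgeR adjusted p = 0.38). At 500 nM against DMSO in TMD8, where 29.9% of all rows rose, the edgeR log2 changes were 0.94 for RMRP (SE 0.07, adjusted p = 2.1e-09), 1.06 for MIR4461 (0.11, 1.9e-07) and 0.77 for RPPH1 (0.07, 1.7e-08). RPL13AP5, a ribosomal protein pseudogene, had a log2 change of -0.05 (edgeR adjusted p = 0.56).

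Among abundant structural noncoding RNAs, with RMRP and RPPH1 included, 5 of 8 tested rows rose and 1 fell in OCI-Ly1 at 500 nM (median log2 change 0.39). There 27.7% of all rows rose. In TMD8 6 of 8 rose and 1 fell (median 0.70), where 29.9% of all rows rose. TERC, the RNA template of telomerase, rose by 0.72 (SE 0.08) in OCI-Ly1 and 0.81 (SE 0.05) in TMD8 on the log2 scale (edgeR adjusted p = 4.8e-07 and 3.9e-10). MALAT1, a nuclear long noncoding RNA, rose by 0.50 and 0.63 on the log2 scale (edgeR adjusted p = 8.9e-09 and 1.4e-07). RNU11, a small RNA of the minor spliceosome, rose by 0.60 and 0.62 (edgeR adjusted p = 0.0017 and 0.00068). Each of these changes in OCI-Ly1 was below the 1.81 of MIR3648, the smallest among the 6 loci. In TMD8 they lay within the range of the loci, 0.48 (MIR3687) to 1.01 (LOC284801). RMRP and RPPH1 in TMD8 lay within that range too, and MIR4461 lay above it.

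Most genes tested that process ribosomal RNA fell at 500 nM in both lines. Of 26 tested pre-rRNA processing factors, 19 fell and 0 rose in OCI-Ly1 at 500 nM against DMSO (median log2 change -0.27), where 25.9% of all rows fell by edgeR. In TMD8 all 26 fell (median -0.69), where 30.7% of all rows fell. NCL, the nucleolar protein nucleolin, went from 1884 ± 71.5 to 1172 ± 55.6 CPM in OCI-Ly1 (SD, n = 3, log2 change -0.68, edgeR adjusted p = 1.1e-09). In TMD8 NCL went from 1324 ± 44.4 to 674 ± 18.4 CPM (log2 change -0.97, edgeR adjusted p = 9.8e-11). NPM1, nucleophosmin, had log2 changes of -0.64 in OCI-Ly1 and -0.55 in TMD8 (edgeR adjusted p = 6.3e-08 and 4.3e-07). NOP56, a core protein of box C/D snoRNPs, had -0.59 and -0.81 (edgeR adjusted p = 9.8e-09 and 2.3e-10).

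Of 16 genes of the RNA polymerase I machinery, 5 fell and 3 rose in OCI-Ly1 at 500 nM (median log2 change -0.08), close to the 25.9% of all rows that fell and the 27.7% that rose. In TMD8 13 fell and 1 rose (median -0.35), where 30.7% of all rows fell. CD3EAP, a subunit of the polymerase, had log2 changes of -0.89 in OCI-Ly1 and -0.78 in TMD8 (edgeR adjusted p = 7.4e-09 and 1.5e-05). POLR1B, a catalytic core subunit, had -0.55 and -0.92 (edgeR adjusted p = 1.7e-07 and 2.1e-10). TAF1D, a subunit of the promoter factor SL1, had -0.47 and -0.22 (edgeR adjusted p = 4.9e-05 and 0.0038). At 150 nM against DMSO 9 of the 16 and all 26 processing factors fell in TMD8 by edgeR, where 25% of all rows fell and 19.2% rose. In OCI-Ly1 edgeR called 0 of the 16 and 0 of the 26 at 150 nM, with 2 and 1 lower at an unadjusted p under 0.05, and DESeq2 called 0 of each. The TMD8 falls stood beside log2 changes of 0.10 to 0.58 at the 6 loci.

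Of 14 regulators of ribosomal DNA chromatin, 4 rose and 2 fell in OCI-Ly1 at 500 nM (median log2 change -0.06), near or below the 27.7% of all rows that rose and the 25.9% that fell. In TMD8 2 rose and 8 fell (median -0.24), where 29.9% of all rows rose and 30.7% fell. KDM4A, a Jumonji demethylase, had log2 changes of 0.44 and 0.38 in the 2 lines (edgeR adjusted p = 1.6e-05 and 4.1e-06). SMARCA5, the ATPase of the nucleolar remodelling complex, had log2 changes of -0.40 and -0.51 (edgeR adjusted p = 2.9e-06 and 1.3e-07). PHF8, a Jumonji demethylase that binds ribosomal DNA, had log2 changes of 0.32 in OCI-Ly1 and -0.09 in TMD8 (edgeR adjusted p = 7.8e-05 and 0.19).

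The log2(CPM + 0.1) of each of 14477 rows was correlated with the log2 of the summed CPM of the 6 loci. Rows were ordered by the lower of Pearson's r over the 9 libraries of each line. The most alike were GPR137 (r = 0.945 in OCI-Ly1 and 0.978 in TMD8), POLR2J4 (0.939 and 0.946), SERINC5 (0.965 and 0.936), TYK2 (0.935 and 0.951) and RELL1 (0.973 and 0.934). The 9 points share the dose groups and the scaling. Their changes at 500 nM in OCI-Ly1 were smaller than those of the loci, with log2 changes from 0.39 for POLR2J4 (SE 0.08) to 1.07 for RELL1 (SE 0.06).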

How the data were processed

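Bulk RNA of 18 libraries was analysed, with 3 libraries in each of 6 groups and groups taken from the labels. Per the labels' protocols, libraries were paired-end and depleted of ribosomal RNA. The authors deposited estimated counts and TPM per gene symbol for each line. The submitters' processing notes name kallisto 0.46.0, R 4.3.1, DESeq2 1.40.2 and hg19 with no role, and the step from transcripts to genes is not given in the sources used here. Estimated counts were rounded to whole numbers. The 9 libraries of a line were fitted together with edgeR 4.0.16 in R 4.3.3 (TMM, filterByExpr, quasi-likelihood test, Benjamini-Hochberg over all rows tested, threshold 0.05). The SE is the log2 change over the root of the F statistic. The common biological coefficient of variation was 6.84% in OCI-Ly1 and 5.3% in TMD8, and normalisation factors ran from 0.939 to 1.05. On simulated counts with 15514 genes for OCI-Ly1 at 500 nM, 97% of changes of 1 on the log2 scale were called. For changes of 0.5 it was 83.8%, and 76.5% on counts simulated for TMD8. The simulation gave all genes the same spread and changed few of them, unlike these data, so it does not give the power for the 6 loci. Shares were compared by exact permutation. The reads carry no molecular identifiers. Alternatives were library-size scaling, DESeq2 1.42.0, no filter, limma 3.58.1 on log2(TPM + 1) and log2(TPM + 0.1), TPM without the members, a replicate block, and each library left out. Sequences came from RefSeq (GRCh38.p14) and GENCODE 29 and were aligned without gaps. The members, lists and tests were chosen with earlier results of these data known. Named were the members, the ribosomal RNA rows, at most 3 called genes of each list with the largest change in OCI-Ly1 at 500 nM, the 5 rows most like the members and the 5 other rows with the largest TPM in TMD8, of which some are not reported here. The lists of markers of other cell types gave, at 500 nM against DMSO in OCI-Ly1, 2 of 3 T-cell genes and 2 of 3 epithelial genes lower, 0 of 1 myeloid genes called and no erythroid gene tested. In TMD8 no T-cell gene could be tested, 1 of 2 myeloid genes and the 1 erythroid gene tested were higher, and 0 of 2 epithelial genes were called. Of 6 B-cell genes, 2 rose and 3 fell in OCI-Ly1, and 1 rose and 4 fell in TMD8. Beside these marker counts, 27.7% of all rows rose and 25.9% fell in OCI-Ly1 by edgeR. In TMD8 29.9% of all rows rose and 30.7% fell.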

Additional observations from a re-analysis of the deposited data

How the results depend on the processing

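The 6 of 6 calls at 500 nM in OCI-Ly1, against DMSO and against 150 nM, held under every alternative run, including each library left out (6 to 6). At 150 nM against DMSO the count of calls was 1 with no low-count filter, 0 under the other scalings and tools, and 0 to 1 with a library left out. Single values there turned sign without a call: MIR663A was -0.02 and MIR663B 0.0 on all 3 TPM scales. With a library left out MIR663B ran from -0.20 to 0.24 (below 0 without DMSO replicate 1, 150 nM replicate 1 or 150 nM replicate 3). MIR663A ran from -0.21 to 0.61 and MIR3687 from -0.11 to 0.49, both below 0 without 150 nM replicate 3. The cause was not tested. The median TMD8 change at 500 nM was 0.65 by counts and 0.36 on both log2(TPM + 1) and log2(TPM + 0.1), and ran from 0.45 to 0.74 with a library left out. At 150 nM it ran from 0.10 to 0.42, and between the doses from 0.30 to 0.40.

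By counts in place of TPM the OCI-Ly1 mean shares for DMSO, 150 nM and 500 nM were 0.0431%, 0.0519% and 0.269%, and those of TMD8 2.55%, 3.40% and 4.38%. Without the member of largest TPM the shares were 0.547%, 0.684% and 2.44% (OCI-Ly1) and 30.1%, 32.0% and 33.7% (TMD8). With a library left out the TPM shares ran, in the same order, from 1.09% to 1.41%, 1.10% to 1.69% and 5.05% to 5.19% in OCI-Ly1, and from 45.2% to 49.6%, 48.0% to 50.5% and 54.1% to 56.8% in TMD8. The median change of the other rows in OCI-Ly1 at 500 nM (0.0471 as deposited, 0.0729 with the members removed) was 0.127 and 0.17 with a pseudocount of 0.1, and 0.12 and 0.172 over rows with a mean of at least 1 TPM. In TMD8 the latter values were -0.347 and -0.147. With a library left out the OCI-Ly1 medians ran from 0.0423 to 0.0583 and from 0.0681 to 0.0883. Those of TMD8 ran from -0.0941 to -0.0572 and from -0.00175 to 0.000772.

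With the replicate number as a replicate block, edgeR called 6 members at 500 nM against DMSO, 6 against 150 nM and 0 at 150 nM against DMSO in OCI-Ly1. Deviations of same-numbered libraries correlated from -0.046 to 0.146 (OCI-Ly1) and from -0.055 to 0.141 (TMD8) over 9 pairs each. Those of differently numbered libraries correlated from -0.173 to 0.042 (OCI-Ly1) and from -0.19 to 0.105 (TMD8) over 18 pairs each. The labels do not tie the numbers across groups, so the numbers were not taken to pair the libraries. The lowest estimated count of MIR3687 in the OCI-Ly1 DMSO libraries was 315.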
